A study of Mus musculus with 6 samples.

Results

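Of the 3093 long non-coding RNA (lncRNA) transcripts listed for mouse pancreatic islets, 235 (7.60%) lay over at least 1 base of an exon of an annotated non-coding gene, and these are the transcripts described here. The exons were those of GENCODE M21 genes of the types lincRNA, antisense, processed transcript, sense intronic, sense overlapping, bidirectional promoter lncRNA and TEC, on GRCm38, and the choice used position and no measured value. The islets, the endocrine cell clusters of the pancreas, came from C57BL/6 mice kept for 8 weeks either on normal chow (NCD, with 3 libraries) or on a high-fat diet (HFD, with 3 libraries). Total RNA was extracted with Trizol and made into TruSeq libraries. Sex and age are not given in the labels, and the db/db mice named in the series title were not analysed here. The table gives 1 FPKM (fragments scaled to transcript length and to total mapped fragments) per diet group and no value per library, so no difference below carries an SD or a test. In bulk islet RNA, fewer cells of a type and less RNA per cell cannot be told apart. The table holds lncRNA transcripts and no expression values of hormone or other marker genes, so the islet label could not be checked by them.

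GENCODE sorts non-coding genes mainly by where they lie. A lincRNA gene stands between coding genes, an antisense gene overlaps a coding gene on the other strand, a bidirectional promoter lncRNA starts beside a coding gene and runs away from it, a processed transcript is a spliced non-coding gene that falls in no narrower class, and a TEC gene is a model from cDNA clones or tags that awaits experimental support. Many such RNAs are capped, spliced and polyadenylated like messenger RNA but stay at low levels, and some are known for acting on the locus they come from, in islets as elsewhere. Others are the hosts of small RNAs, such as microRNAs and small nucleolar RNAs (snoRNAs), that are cut from their introns.

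The 235 transcripts carried the names of 210 non-coding genes. By type, 88 lay over lincRNA genes, 66 over antisense genes, 33 over TEC genes, 29 over processed transcripts, 18 over bidirectional promoter lncRNAs, 1 over a sense intronic gene and 0 over a sense overlapping gene. Most of the 210 genes have no given name: 114 are known by a Gm number, 50 by a RIKEN clone, 20 by a sequence accession and 26 by another symbol. Strand and exon structure are absent from the table, so a transcript lying over a gene cannot be told from other RNA of that place, and an antisense transcript cannot be told from its coding partner. Of the 235 intervals, 68 also held protein-coding exon sequence and 167 held none. The named genes of 100 transcripts overlapped a coding gene on the opposite strand, and 78 of those intervals did so themselves, some of them only over introns, where the partner's unspliced RNA could be counted as well.

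The sequences below were chosen because they sit where a transcript of the table begins or ends at an annotated gene and the diet groups lay far apart or the level was high. Of the 235, 105 lay over genes (90 in number) with a promoter in the RefSeq table (GRCm38.p6), and 28 began within 50 bases of that RefSeq start, at 27 promoters. Each promoter runs 5′ to 3′ on the strand of the gene, from 250 bases before the start to 50 after it. The 3 with the lowest and the 3 with the highest HFD to NCD ratio follow, with capitals marking the TATAAA motif, the CCAAT motif and the GGGCGG motif, each searched on both strands. No 2 marked matches overlap.

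1810019D21Rik, chr8:106135150-106135449, plus strand: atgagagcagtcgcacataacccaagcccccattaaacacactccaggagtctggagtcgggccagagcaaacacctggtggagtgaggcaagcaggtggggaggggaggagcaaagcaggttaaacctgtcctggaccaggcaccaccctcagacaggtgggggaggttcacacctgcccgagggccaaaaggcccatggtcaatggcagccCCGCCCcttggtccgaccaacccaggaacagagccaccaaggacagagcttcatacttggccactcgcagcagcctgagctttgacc

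Gas5, chr1:161034351-161034650, plus strand: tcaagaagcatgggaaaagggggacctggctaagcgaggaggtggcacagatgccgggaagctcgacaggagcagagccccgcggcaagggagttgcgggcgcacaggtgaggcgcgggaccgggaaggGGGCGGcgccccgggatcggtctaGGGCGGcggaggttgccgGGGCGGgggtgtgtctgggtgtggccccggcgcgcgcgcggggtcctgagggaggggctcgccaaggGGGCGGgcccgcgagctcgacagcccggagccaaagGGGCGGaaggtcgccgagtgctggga

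Gm45805, chr8:126758304-126758603, minus strand: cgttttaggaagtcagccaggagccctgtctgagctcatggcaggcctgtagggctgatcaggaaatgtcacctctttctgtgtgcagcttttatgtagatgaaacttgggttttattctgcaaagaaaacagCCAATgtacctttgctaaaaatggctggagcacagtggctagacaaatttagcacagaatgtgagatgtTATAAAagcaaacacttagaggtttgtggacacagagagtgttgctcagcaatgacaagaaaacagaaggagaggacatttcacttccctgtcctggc

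9430065F17Rik, chr13:67552984-67553283, plus strand: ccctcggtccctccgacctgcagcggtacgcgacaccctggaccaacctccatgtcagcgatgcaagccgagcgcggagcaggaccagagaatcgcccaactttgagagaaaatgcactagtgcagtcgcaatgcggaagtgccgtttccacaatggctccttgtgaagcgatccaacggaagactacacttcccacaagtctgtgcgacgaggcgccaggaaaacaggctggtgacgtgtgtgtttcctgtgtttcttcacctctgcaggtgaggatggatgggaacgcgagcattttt

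Gm38250, chr8:105565930-105566229, plus strand: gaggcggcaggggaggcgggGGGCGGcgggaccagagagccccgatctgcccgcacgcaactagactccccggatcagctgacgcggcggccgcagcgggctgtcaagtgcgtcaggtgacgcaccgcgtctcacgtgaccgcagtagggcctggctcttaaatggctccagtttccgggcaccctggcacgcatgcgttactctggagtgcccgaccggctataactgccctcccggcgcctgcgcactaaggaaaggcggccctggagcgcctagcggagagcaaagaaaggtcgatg

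Gm26760, chr15:92344109-92344408, plus strand: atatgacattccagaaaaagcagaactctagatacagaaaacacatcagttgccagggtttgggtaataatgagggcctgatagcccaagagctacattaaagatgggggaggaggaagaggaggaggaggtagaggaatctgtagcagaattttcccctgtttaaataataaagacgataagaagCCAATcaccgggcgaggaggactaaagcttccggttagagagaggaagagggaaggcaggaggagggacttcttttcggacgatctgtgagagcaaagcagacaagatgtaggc

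These 6 differ in make-up. Gas5 held GGGCGG at several places in a stretch with 33 CpG sites and 73.7% G or C, while Gm45805 held TATAAA and CCAAT in one with 1 CpG site and 44.7%. The promoter of 9430065F17Rik held none of the motifs. Across all 27 promoters, 17 (63.0%) held GGGCGG, against 35.7% of the 32851 promoters in the RefSeq table. CCAAT stood in 10 (37.0%, against 37.4%) and TATAAA in 2 (7.41%, against 13.6%). The median promoter at these starts had 60.7% G or C and 21 CpG sites, against 52.7% and 7 in the whole table. The 14 promoters of genes lying head to head with a coding gene, which means that a coding gene on the opposite strand starts within 1000 bases, had a median of 28.5 CpG sites and 66.2% G or C. The other 13 had 7 CpG sites and 56.3%. A match is a description of these letters and says nothing of which factor binds there.

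At the other end, 40 of the 235 ended within 50 bases of an annotated transcript end of their gene. AATAAA, the usual polyadenylation signal, was looked for on the transcript's strand in the last 50 bases of the annotated transcripts ending there. It stood in 20 of 39 (51.3%), against 5554 of the 18924 non-coding transcripts of GENCODE M21 (29.3%). The 6 ends below are those with the highest mean levels and with the lowest and highest HFD to NCD ratios, with AATAAA in capitals.

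Rian, last bases of ENSMUST00000181253.8: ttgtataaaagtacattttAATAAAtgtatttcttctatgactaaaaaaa

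4930453C13Rik, last bases of ENSMUST00000222376.1: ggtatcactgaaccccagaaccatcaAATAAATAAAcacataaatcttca

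5730412P04Rik, last bases of ENSMUST00000147100.1: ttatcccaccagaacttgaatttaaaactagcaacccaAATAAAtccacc

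1810019D21Rik, last bases of ENSMUST00000145343.1: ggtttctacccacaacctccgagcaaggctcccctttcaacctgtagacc

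Gm17056, last bases of ENSMUST00000164804.1: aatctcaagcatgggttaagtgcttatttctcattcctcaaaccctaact

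Gm38250, last bases of ENSMUST00000192691.1: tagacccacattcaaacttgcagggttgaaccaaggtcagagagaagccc

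The first 3 hold the signal, once with a second copy overlapping the first in 4930453C13Rik, and the last 3 do not hold these letters in this window. The interval of 4930453C13Rik ends 36 bases before the annotated end, so the marked letters lie beyond it. High and low ratios of the diets stood on both sides: 5730412P04Rik with the signal and Gm38250 without it were both listed at 0 in NCD.

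In the columns as deposited, HFD values lay below NCD values for most of these transcripts. The median level was 2.06 FPKM in NCD and 1.43 FPKM in HFD, and the median log2 ratio of HFD over NCD, with 0.1 FPKM added to each, was -0.42. In the whole table the medians were 2.53 and 1.42 FPKM and the median ratio was -0.82. HFD was lower in 161 of the 235 (68.5%, against a background of 80.0% over all transcripts of the table) and higher in 74 (31.5%, against 20.0%). By the size rule, which calls a transcript when the ratio is at least 2-fold, 60 (25.5%) were lower in HFD, against 41.9% of all transcripts, and 17 (7.23%) were higher, against 6.27%. The share of low calls was thus below the background and the share of high calls near it. The table itself is shifted by -0.82, so every transcript with a ratio between -0.82 and 0 lies above the table's middle and is on the higher side once the columns are centred. On that scale 16 of the 235 were at least 2-fold lower and 57 higher, against 464 and 493 of the 3093 in the whole table. The median was 0.40, and lower calls made up 21.9% of all calls in place of 77.9% (48.5% in place of 87.0% in the whole table). Which direction was the more frequent among these transcripts therefore depends on whether the columns are taken as deposited.

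**Figure D1:**
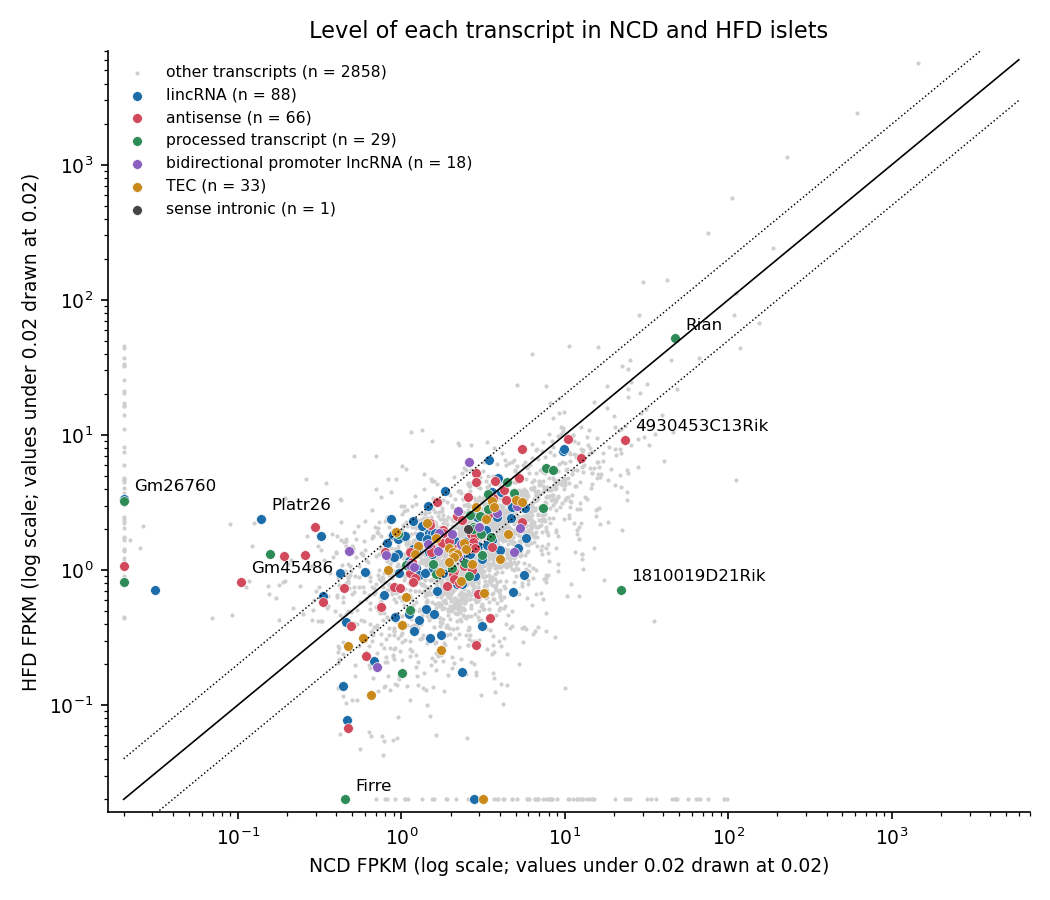
FPKM of each of the 235 transcripts in NCD (x axis, log scale) against HFD (y axis, log scale), coloured by gene type. Grey points are the 2858 other transcripts of the table. The solid line is equality, the dotted lines mark 2-fold, and values under 0.02 FPKM are drawn at 0.02. Most points lie below equality, and 1810019D21Rik lies far below it while Rian is the highest in both groups.

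Elsewhere in the table, transcripts in introns had the lowest median. The log2 ratio had a median of -0.98 for the 2054 transcripts wholly inside introns, -0.41 for the 285 over coding exons without a non-coding exon, and -0.42 for the 493 outside genes. The transcripts over non-coding exons, at -0.42, were thus at the level of those over coding exons or outside genes. They were also long, with a median interval of 7750 bases against 669 in the rest of the table. Within intervals under 1 kb the median ratio was -0.43 for 32 of them and -1.04 for 1765 others. From 1 to 5 kb it was -0.34 for 54 and -0.74 for 763, and from 5 to 20 kb -0.25 for 83 and -0.52 for 238. At 20 kb or more the 66 had -0.61 and the 92 others -0.68. The gap was widest among the short intervals and smallest among the longest. No test of these gaps could be made on 1 value per group.

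Among gene types, the median log2 ratio was below 0 in all 5 types with more than 1 transcript, and above 0 in all 5 once the columns were centred on the table's median. TEC genes had the lowest, -0.70. Of their 33 transcripts, 26 were lower in HFD (78.8%, against 80.0% of all transcripts), 9 at least 2-fold lower (27.3%, against 41.9%) and 0 at least 2-fold higher (against 6.27%), so their share of lower values was near the background. Processed transcripts had -0.42, with 8 of 29 at least 2-fold lower and 3 higher. LincRNA genes had -0.34, with 25 of 88 lower and 7 higher by that rule, and antisense genes had -0.33, with 15 of 66 lower and 5 higher. Bidirectional promoter lncRNAs had the smallest median, -0.21, with 3 of 18 lower and 2 higher. Median levels in NCD ran from 1.55 FPKM (lincRNA) to 2.73 FPKM (processed transcript), and in HFD from 1.30 FPKM (TEC) to 1.84 FPKM (processed transcript). Whether a coding exon was also touched went with no single direction across types. The 33 antisense transcripts without one had a median of -0.54, with 11 at least 2-fold lower and 1 higher, and the 33 with one had -0.16, with 4 lower and 4 higher. Bidirectional promoter lncRNAs had -0.26 without (9 transcripts) and -0.17 with (9). LincRNA genes had -0.29 without (78) and -0.48 with (10), and processed transcripts -0.42 without (23) and -1.07 with (6). TEC genes had -0.69 without (24) and -0.70 with (9). The sense intronic transcript, over Gm49223, was at 2.55 FPKM in NCD and 2.03 FPKM in HFD.

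**Figure D2:**
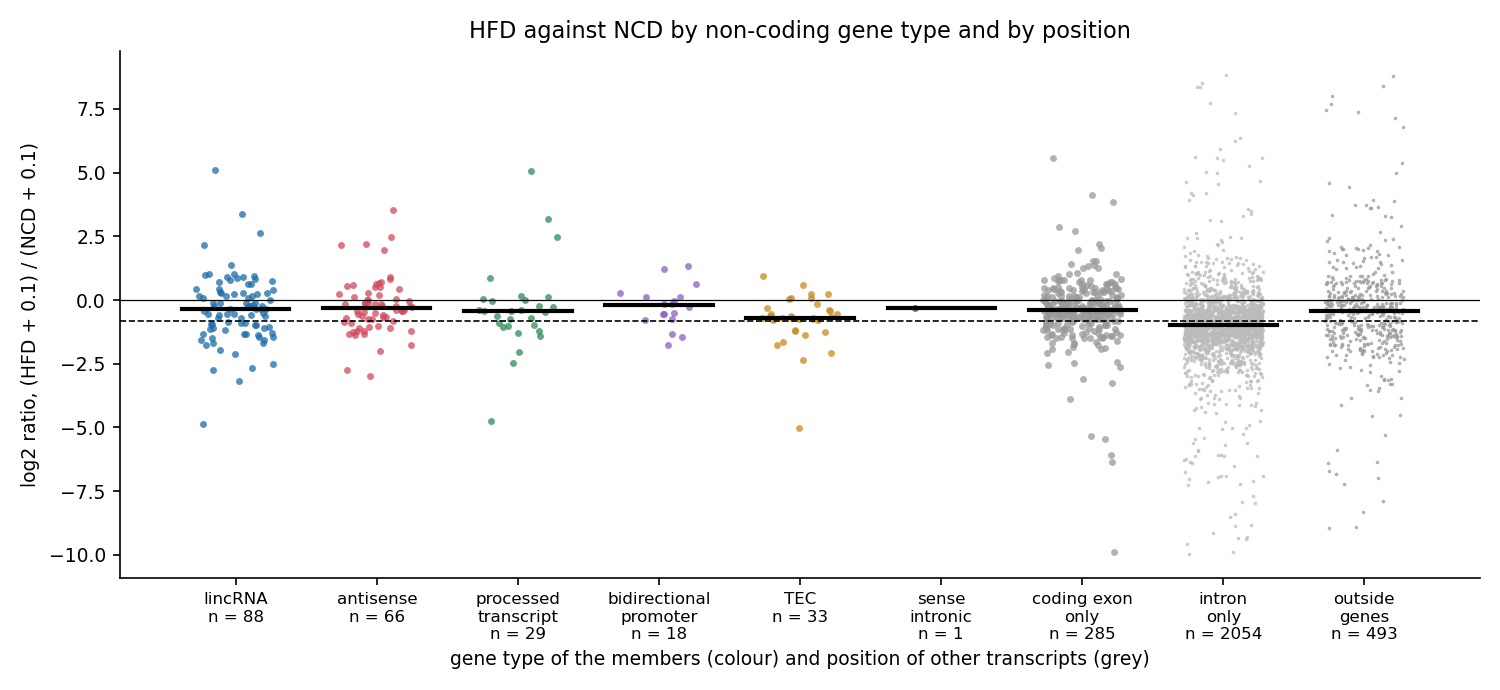
Log2 ratio of HFD over NCD FPKM (0.1 added to each) for every transcript, grouped by gene type, with the median of each type as a bar. The dashed line is the table's median of -0.82. The 5 types with more than 1 transcript have points on both sides of 0, and the TEC genes, median -0.70, have none at least 2-fold higher.

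Processed transcripts held the highest level and, among transcripts above 0 in both groups, the lowest ratio. Rian, a maternally expressed imprinted RNA that hosts snoRNAs, was the most abundant of the 235. Its interval, chr12:109620327-109661716, begins and ends at annotated transcript ends of the gene, and it was at 47.1 FPKM in NCD and 51.9 FPKM in HFD, a log2 ratio of 0.14. It was thus nearly level between the diets as deposited and 0.96 above the table's middle. 1810019D21Rik, at chr8:106135400-106138525, covers the annotated gene from its first to its last base and overlaps the opposite-strand gene Esrp2 over 1575 bases, which encodes an epithelial splicing regulator. It was at 21.9 FPKM in NCD and 0.713 FPKM in HFD, a log2 ratio of -4.76, the lowest among transcripts above 0 in both groups. The interval touches a coding exon, so RNA of the opposite gene could be counted in it.

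Firre, an X-linked RNA with repeated sequence known for its part in nuclear organisation, was at 0.449 FPKM in NCD over chrX:50555751-50635066, with both ends at annotated transcript ends. Its HFD value was 0.00013 FPKM, far below what 1 fragment would be worth over its 7985 exonic bases (0.0017 FPKM), so it cannot be read as a level. Gas5, a snoRNA host that takes part in growth arrest, was at 1.00 FPKM in NCD and 0.172 FPKM in HFD, a log2 ratio of -2.02. Its interval, chr1:161034622-161038539, begins 21 bases after the RefSeq start whose promoter is printed above and shares 228 bases with the opposite-strand gene Zbtb37. A530058N18Rik starts head to head with Gjd2, the gap junction protein that couples beta cells, and was present as 3 transcripts. The most abundant was at 8.46 FPKM in NCD and 5.51 FPKM in HFD (-0.61). The others, which share one interval, were at 3.11 and 1.30 FPKM (-1.20) and at 2.04 and 1.03 FPKM (-0.92). All 3 were lower in HFD, the first only until the columns were centred. 1810026B05Rik, chosen after its value was seen, was at 7.63 FPKM in NCD and 5.70 FPKM in HFD (-0.42), and it too begins and ends at annotated transcript ends.

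Among processed transcripts higher in HFD, Gm49708 was at 0.158 FPKM in NCD and 1.32 FPKM in HFD, a log2 ratio of 2.46. 5730412P04Rik, on the X chromosome, was listed at 0 in NCD and at 3.21 FPKM in HFD. Its interval ends 1 base from an annotated end, printed above. AI506816, also chosen after its value was seen, was listed at 0 in NCD and at 0.817 FPKM in HFD. With 1 value per group, an exact 0 can be a transcript that the authors' quantification gave no fragments, and no fold is given for it.

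LincRNA genes gave several of the largest ratios in both directions. Platr26, a gene named for its link to pluripotency, was at 0.138 FPKM in NCD and 2.40 FPKM in HFD at chr2:71729064-71730941, a log2 ratio of 3.39, the highest among transcripts above 0 in both groups. 5031425E22Rik, whose gene starts head to head with the chromatin regulator gene Kmt2e though the interval lies 47244 bases from it, was at 0.0311 FPKM in NCD and 0.710 FPKM in HFD (2.63). Gm34574 was at 0.323 FPKM in NCD and 1.79 FPKM in HFD (2.16). All of these began from a very low NCD level. Gm26760 was listed at 0 in NCD and at 3.32 FPKM in HFD. It begins 21 bases after the RefSeq start printed above.

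In the other direction, Gm47431 was present as 5 overlapping transcripts on chromosome 12, all lower in HFD, with log2 ratios from -2.66 to -1.32. Summed, they were at 13.99 FPKM in NCD and 3.33 FPKM in HFD (-2.04). Their intervals overlap and the file lists them under 2 loci, so how fragments were divided among them is uncertain, and the sum carries that uncertainty too. AC102496.1 was at 2.36 FPKM in NCD and 0.175 FPKM in HFD (-3.16). Gm47096 was at 3.11 FPKM in NCD and 0.383 FPKM in HFD (-2.74), but only 16 bases of its 417-base interval are non-coding exon. Gm49542, a 120585-base interval, was listed at 2.79 FPKM in NCD and at 0 in HFD. Mir670hg, a microRNA host, had 2 transcripts that differed: one of 2530 bases was at 5.65 FPKM in NCD and 0.910 FPKM in HFD (-2.51), and one of 68406 bases was at 1.16 and 1.29 FPKM (0.14).

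The most abundant lincRNA transcripts differed less. Fam120aos was at 9.94 FPKM in NCD and 7.82 FPKM in HFD (-0.34). Gm30551 was at 9.71 and 7.65 FPKM, but its 83008-base interval holds only 120 bases of non-coding exon beside 8355 bases of coding exon. Gm27000, on the X chromosome and wholly exon, was at 3.44 FPKM in NCD and 6.49 FPKM in HFD (0.90), higher in HFD under either scaling. Jpx, which acts in X inactivation as an activator of Xist, was at 1.81 FPKM in NCD and 0.945 FPKM in HFD (-0.87). Snhg10, a snoRNA host, was at 1.54 and 1.30 FPKM (-0.23). Gm30648, whose interval has both ends of an annotated transcript, was at 3.57 and 3.78 FPKM (0.08). Gm26853, one of the 5 longest intervals at 311542 bases, was at 2.92 FPKM in NCD and 2.47 FPKM in HFD (-0.23). It holds more coding exon (4602 bases) than non-coding exon (4010 bases). Of the 7 transcripts on the X chromosome, 4 were lower and 3 higher in HFD, against 80.0% and 20.0% of all transcripts. Nothing is read from so few.

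Antisense genes overlap coding genes, several of which matter to islets. The gene Plut overlaps Pdx1, the transcription factor that beta cell identity depends on. The transcript over it, at chr5:147228217-147236407, lies 33551 bases from Pdx1 itself and was at 3.57 FPKM in NCD and 1.49 FPKM in HFD, a log2 ratio of -1.21. Gm45486 lies wholly inside Abcc8, on the other strand, the sulfonylurea receptor subunit of the potassium channel that links glucose to insulin release. At chr7:46123363-46130424 it was at 0.104 FPKM in NCD and 0.821 FPKM in HFD (2.17), and it touches a coding exon. Pcsk2os1, chosen after its value was seen, is the opposite-strand gene of Pcsk2, a convertase that processes prohormones. Its transcript at chr2:143535476-143545977 has both ends at annotated transcript ends and lies 178 bases from Pcsk2. On the strand of Pcsk2os1, the end near Pcsk2 is the start. The transcript was at 1.49 FPKM in NCD and 2.15 FPKM in HFD (0.50). The 3 thus differed in direction, and the coding partners themselves were not measured here.

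Other antisense transcripts with low HFD values were Gm17056, beside Lsmem1, at 2.86 FPKM in NCD and 0.279 FPKM in HFD (-2.96), and Gm13062, inside the junction protein gene Kazn, at 3.50 and 0.439 FPKM (-2.74). 4930453C13Rik lies inside Atxn1, which encodes an RNA-binding transcriptional regulator, and had the next highest NCD level after Rian. In its 366-base interval at chr13:45936503-45936868 it was at 23.3 FPKM in NCD and 9.21 FPKM in HFD (-1.33). Gm9968 and Gm19522 lie opposite Zbtb20, a transcriptional repressor, in intervals among the 5 longest of the set. The interval named for Gm9968 covers 662110 bases at chr16:42907652-43569761, all inside Zbtb20, while the gene itself spans only 43345887-43363666. It touches other non-coding genes as well and was at 12.5 FPKM in NCD and 6.79 FPKM in HFD (-0.87). Gm19522 had 2 transcripts of 269883 and 267915 bases, with log2 ratios of -0.58 and -1.25, each holding 263 bases of non-coding exon. Coding exon made up more of each, 441 and 331 bases. Non-coding exons make up 5146 bases of the Gm9968 interval and coding exons 3108, so most of what it spans is intron of this region. RNA of Zbtb20 could be counted in each of these intervals. Also among the 5 longest was 9530026P05Rik, which overlaps Adamts9 over 3147 of its 253975 bases. It was at 0.896 FPKM in NCD and 0.744 FPKM in HFD (-0.24).

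Antisense transcripts higher in HFD were 9230117E06Rik, opposite the diacylglycerol kinase gene Dgkg, at 0.298 FPKM in NCD and 2.09 FPKM in HFD (2.46), and 9430065F17Rik, opposite the zinc-finger gene Zfp748, at 0.193 and 1.26 FPKM (2.22). Gm15545, head to head with the arginine methyltransferase gene Prmt1, has both ends of an annotated transcript and was at 0.258 FPKM in NCD and 1.29 FPKM in HFD (1.96). Gm38250 was listed at 0 in NCD and at 1.07 FPKM in HFD. It lies head to head with Atp6v0d1, a subunit gene of the vesicle proton pump, and shares 11412 of its 11897 bases with the opposite-strand gene Agrp. Gm17201 was at 10.5 FPKM in NCD and 9.36 FPKM in HFD (-0.16), nearly level as deposited. AC165962.1, at the start of Btbd9, was at 4.27 FPKM in NCD and 3.89 FPKM in HFD (-0.13). The intervals of 9430065F17Rik, Gm15545, Gm38250, Gm17201 and AC165962.1 all touch a coding exon, so RNA of a coding gene could be counted in them. That of 9230117E06Rik touches none.

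Several more partners were read after their values were seen. Gm4419, head to head with the adaptor protein gene Ywhaq, was at 5.46 FPKM in NCD and 7.83 FPKM in HFD (0.51). Rab10os, which overlaps the vesicle transport GTPase gene Rab10, was at 2.18 and 2.50 FPKM (0.19). Slc6a19os, 2315 bases from the amino acid transporter gene Slc6a19, was at 2.46 FPKM in NCD and 1.43 FPKM in HFD (-0.74), which is above the table's middle once centred. Ttc39aos1 was at 2.57 FPKM in NCD and 3.49 FPKM in HFD (0.43). 1010001N08Rik, a processed transcript head to head with Gata6, a pancreas development factor gene, was at 1.13 FPKM in NCD and 0.508 FPKM in HFD (-1.02).

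Bidirectional promoter lncRNAs had 13 of 18 transcripts within 2-fold between the diets as deposited. At least 2-fold lower in HFD were 3 (16.7%, against 25.5% of the 235 and 41.9% of all transcripts). At least 2-fold higher were 2 (11.1%, against 7.23% and 6.27%). Ndufb1-ps was higher in HFD, with 2 transcripts, at 2.60 FPKM in NCD and 6.26 FPKM in HFD (1.24), and at 0.808 and 1.30 FPKM (0.62). Both touch a coding exon. A730020E08Rik, whose 38165-base interval holds 104 bases of non-coding exon, was at 5.31 FPKM in NCD and 2.04 FPKM in HFD (-1.34). Gm44140, whose interval holds more coding exon (5832 bases) than non-coding exon (675 bases), was at 5.13 FPKM in NCD and 2.99 FPKM in HFD (-0.76), which is above the table's middle. 1700007L15Rik, head to head with Zfp148, had 2 transcripts on opposite sides of 0. The 64384-base one, which also holds 631 bases of coding exon, was at 4.88 FPKM in NCD and 1.36 FPKM in HFD (-1.77). The 873-base one was at 0.480 and 1.38 FPKM (1.35).

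TEC genes had the lowest median ratio. The most abundant were Gm48266, at 5.49 FPKM in NCD and 3.17 FPKM in HFD (-0.77), Gm37834, at 5.06 and 3.27 FPKM (-0.61), and Gm44863, at 3.57 and 3.22 FPKM (-0.14). The Gm44863 interval holds more coding exon (10849 bases) than non-coding exon (2477 bases). That of Gm37834 holds 3035 bases of non-coding exon and 523 of coding exon in 173977 bases. CT010445.1, which is wholly exon, was at 2.88 FPKM in NCD and 2.93 FPKM in HFD (0.03). AC166360.1, a 169610-base interval with more coding exon (4093 bases) than non-coding exon (1822 bases), was listed at 3.17 FPKM in NCD and at 0 in HFD. AC144860.4, chosen after its value was seen, was the highest TEC ratio, at 0.925 FPKM in NCD and 1.90 FPKM in HFD (0.96).

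Most of these transcripts are partial matches to the genes they lie over. Of the 235, 73 began and 40 ended within 50 bases of an annotated transcript start or end of their gene, 23 did both, 145 did neither, and 3 had both ends of an annotated transcript. Group medians ran from -0.56 to 0.43. Where neither end was near the annotation, 109 of 145 were lower in HFD (75.2%, near the 80.0% of all transcripts) and the median log2 ratio was -0.56. Where only the start was, 34 of 50 were lower (-0.27). Where only the end was, 8 of 17 were lower (0.43), and where both were, 10 of 23 were (0.08). Of all 40 that ended at the annotation, 22 were higher in HFD (55.0%), against 52 of the 195 that ended elsewhere (26.7%) and 20.0% of all transcripts, with medians of 0.11 and -0.48. Among those touching no coding exon, the shares were 14 of 28 (-0.17) and 39 of 139 (-0.54). Levels also differed, mainly in NCD. All 40 that ended at the annotation had medians of 1.41 FPKM in NCD and 1.34 FPKM in HFD. The 195 that ended elsewhere had 2.09 and 1.44 FPKM. These groups were formed after earlier results were known, and the split was not tested. The share of the interval that was non-coding exon had a median of 12.7%, with 20 transcripts over 90% and 107 under 10%.

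**Figure D3:**
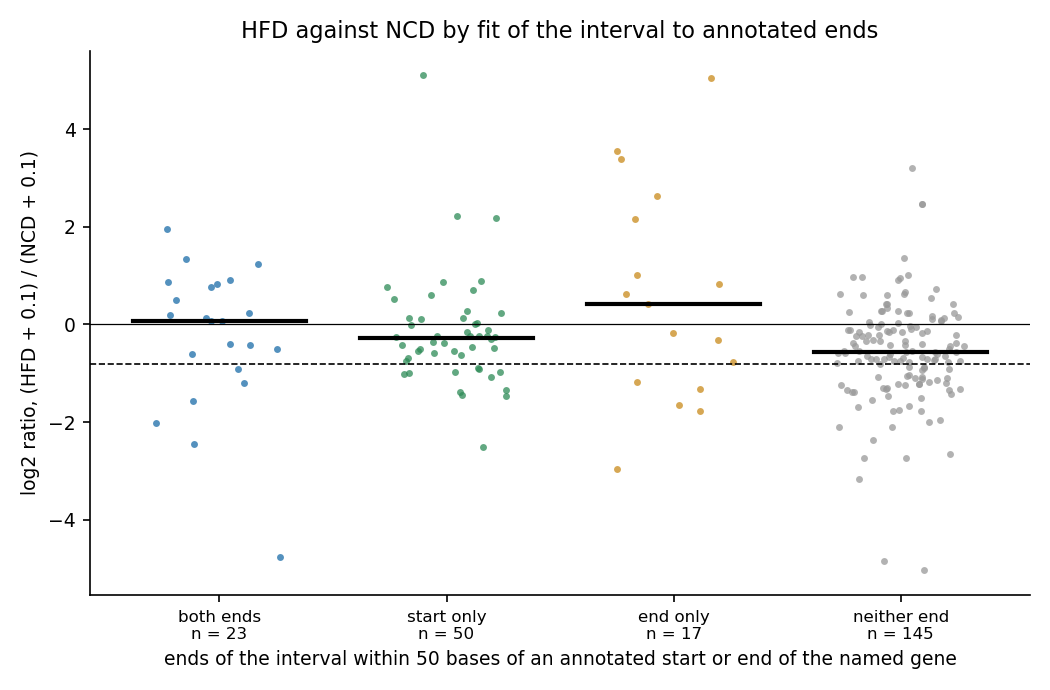
Log2 ratio of HFD over NCD FPKM (0.1 added to each) for transcripts grouped by whether the interval starts, ends, both or neither within 50 bases of the annotated gene, with medians as bars. The dashed line is the table's median of -0.82. Those ending at the annotation have medians of 0.43 (end only) and 0.08 (both), against -0.56 where neither end matches.

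The 57 transcripts of genes that start within 1000 bases of a coding gene on the opposite strand had a median log2 ratio of -0.24, against -0.55 for the 178 others, and both medians lie above 0 once the columns are centred. They numbered 13 over lincRNA genes, 17 over antisense genes, 12 over processed transcripts, 14 over bidirectional promoter lncRNAs and 1 over a TEC gene.

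Transcripts of one gene did not always lie on the same side. In 21 genes with at least 2 transcripts (46 transcripts in all), 10 genes had all of them lower in HFD, 3 had all higher (Gm49636, Ndufb1-ps and Trmt61b) and 8 had both directions. The median range of log2 ratios within a gene was 0.49, and it passed 1 in 5 genes. Besides Mir670hg and 1700007L15Rik, 5033421B08Rik was split, at -1.34 and 0.23. In 16 of the 21 the transcripts are listed under 1 locus identifier, and values of transcripts that overlap depend on how shared fragments were assigned. Gm49636, a lincRNA gene, was at 1.75 FPKM in NCD and 4.21 FPKM in HFD when summed (1.22). Trmt61b, whose record is typed as antisense in GENCODE M21, was at 4.37 and 7.41 FPKM when summed (0.75). Its intervals share 22775 and 977 bases with the coding gene Spdya.

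**Figure D4:**
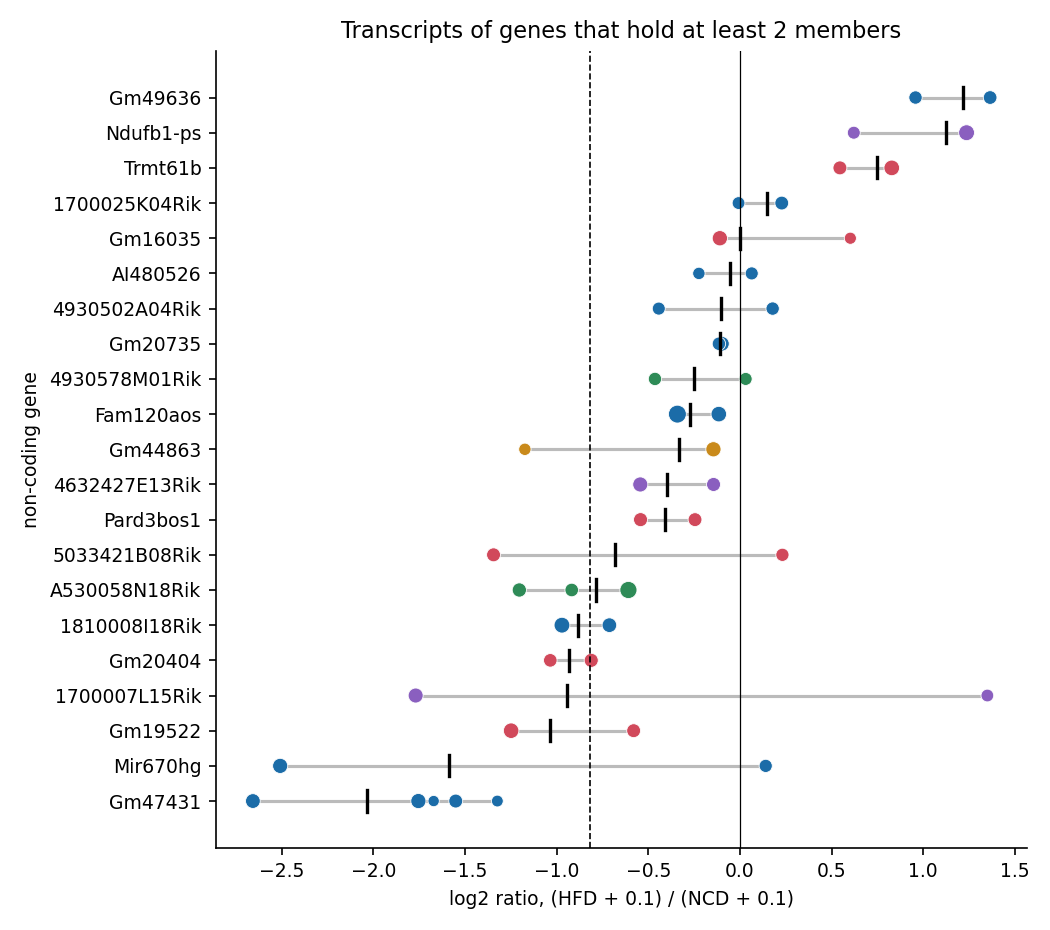
Log2 ratio of HFD over NCD FPKM (0.1 added to each) for each transcript of the 21 genes with several transcripts, one row per gene; dots grow with mean FPKM, black ticks are the ratio of the summed FPKM, colours are gene types and the dashed line is the table's median of -0.82. The 5 dots of Gm47431 all lie at -1.32 or below, while the dots of 1700007L15Rik lie at -1.77 and 1.35.

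The 5 gene lists were set beside the transcripts. Of 24 islet-linked lncRNA names, 19 were in the annotation and 4 had a transcript here: 1810019D21Rik, placed on the list with its value known, Plut, Rian and Gm10451, which was at 2.05 FPKM in NCD and 1.76 FPKM in HFD. Of the 4, 3 were lower in HFD (against 80.0% of all transcripts), 2 of them at least 2-fold (against 41.9%), and the median log2 ratio was -0.71, against -0.82 in the table. These counts are near the background and nothing is read from them. Of 32 well-studied lncRNAs, 29 were annotated and 5 were met: Firre, Gas5, Jpx, Platr26 and Lncpint, which lies under a transcript named for Gm43800 (1.21 and 1.30 FPKM). Of these, 3 were lower and 2 higher (median -0.87), against 80.0% and 20.0% of all transcripts. Gas5 was at least 2-fold lower (against 41.9% of all transcripts) and Platr26 at least 2-fold higher (against 6.27%). The call of Firre as 2-fold lower rests on an HFD value under 1 fragment. Of 33 snoRNA and microRNA hosts, 27 were annotated and 4 genes were met by 5 transcripts: Gas5, Mir670hg, Rian and Snhg10. Of these 5, 3 were lower and 2 higher (median -0.23), against the same 80.0% and 20.0%. Of 16 imprinted genes, 14 were annotated and 2 were met: Rian and A330076H08Rik, under a transcript named for A230057D06Rik at 4.70 FPKM in NCD and 2.43 FPKM in HFD. Of 35 opposite-strand partners of transcription factor genes, 19 were annotated and 0 were met. Most annotated genes of these lists thus had no listed transcript, and the medians rest on 2 to 5 transcripts. Nothing is read from counts this small.

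How few fragments stand behind a value sets how firmly it can be read. Low values in both columns fell on steps of whole fragments, within 0.15 of a fragment for 33 of 41 NCD values (80.5%) and 82 of 90 HFD values (91.1%), where chance gives 30.0%. From these steps the totals were about 64.5 in NCD and 76.25 in HFD, in units of 1e6 fragments. They hold only if each column comes from 1 pool of fragments and the transcripts are unspliced, so intervals are given for the 27 transcripts of 400 to 1000 bases alone. These had a median of 54.3 fragments in NCD and 47.0 in HFD. The 95% exact binomial interval of the ratio, which covers counting error and not variation between mice and is computed without the added 0.1 FPKM, excluded 0 in 15, 11 of them lower in HFD and 4 higher. The 4 were Gm27000 (0.53 to 1.32), Gm49024, AC144860.4 and 1700007L15Rik (0.74 to 2.36). It excluded the table's median of -0.82 in 15 as well, 4 below it and 11 above. Gm13062, with an interval of -4.54 to -1.75 from 37.7 and 6.00 fragments, was one of the 4 below. For 12 of the 27, equal levels lie within counting error.

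**Figure D5:**
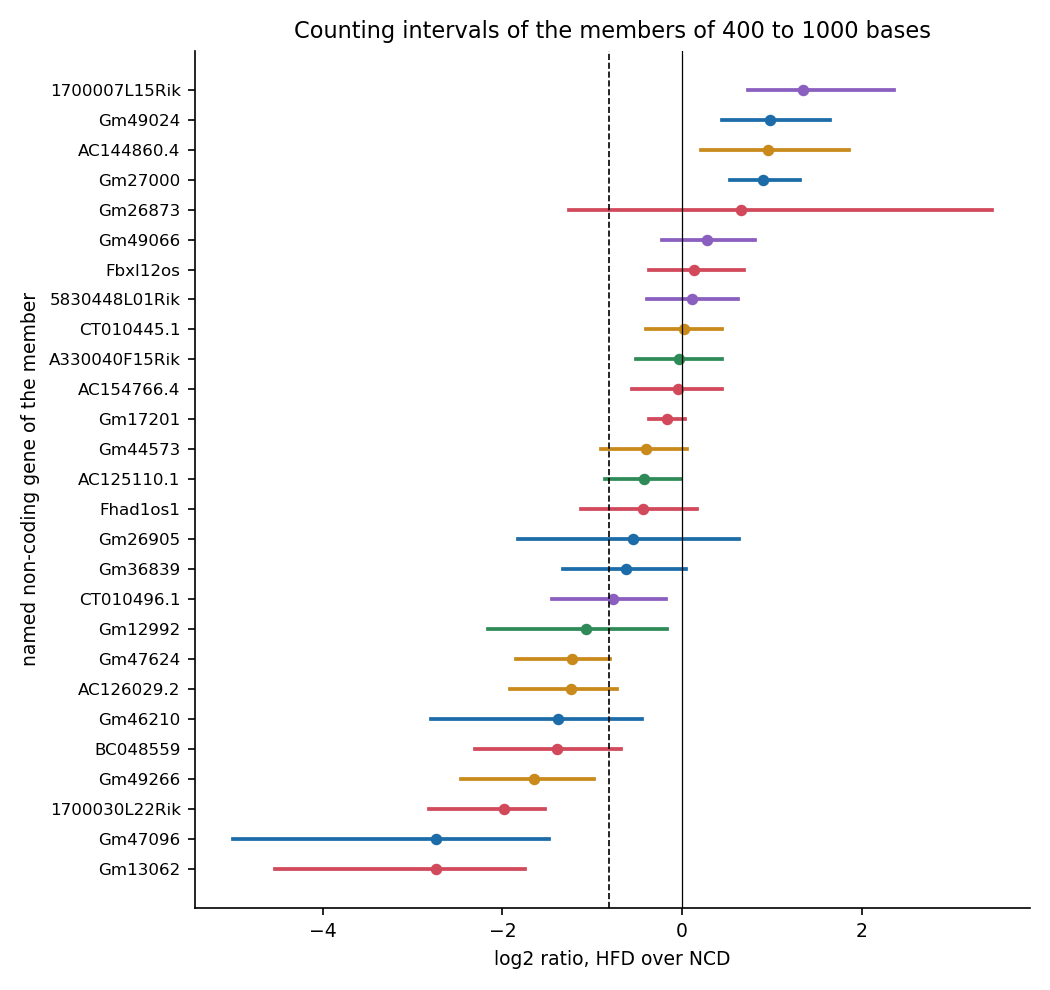
Log2 ratio of HFD over NCD for the 27 transcripts of 400 to 1000 bases; bars are the 95% exact binomial intervals of counting error only, the solid line is 0 and the dashed line is the table's median of -0.82. The interval of Gm27000 runs from 0.53 to 1.32 and that of Gm13062 from -4.54 to -1.75.

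The 1-base rule admits a few transcripts at its edge. 6230400D17Rik shares 2 bases with a non-coding exon and was at 3.76 FPKM in NCD and 4.57 FPKM in HFD, Gm47096 and 2610206C17Rik share 16 bases and Gm46367 shares 19. Just outside, a transcript 14 bases from an exon of Gm43947 was at 0.730 FPKM in NCD and 1.00 FPKM in HFD. The 74 transcripts within 500 bases of a non-coding exon without touching it had a median log2 ratio of -0.60.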

How the data were processed

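Islet RNA was sequenced in 3 libraries per diet group, named by the labels. The deposited table gives FPKM as the authors computed it, per the file headers, in 2 columns of values, 1 per group. The aligner, assembler, quantifier and way of combining libraries were not given in the sources used here. GRCm38 and mm10 are named, per the submitters' processing notes. Intervals were placed on GENCODE M21 exons, since the coordinates matched exon edges of that build as 1-based positions. A transcript took the name of the non-coding gene with most exonic bases in its interval. The log2 ratio used a pseudocount of 0.1 FPKM and understates the change of low transcripts. A filter of 0.1 FPKM in either group removed 0. Calls were by size, at 2-fold, with no test, because there was 1 value per group. Overlaps and the depth fit were tested on simulated data.

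Named transcripts were the 8 highest and 8 lowest ratios above 0 in both groups and at least 400 bases long, the 3 most abundant of each type, those over genes of the 5 lists, the 5 most abundant that are over 90% exon or have both annotated ends, the 3 most abundant on each side listed at 0 in a group, and the 5 longest. Others named in the text, among them transcripts at printed promoters, at the edge of the overlap rule, with counting intervals or in genes with several transcripts, were picked with their values known. The transcripts, lists and rule were chosen with earlier results of these data known. Planned GC and repeat content of the intervals needs a genome sequence, which was not used here. Scaling, pseudocount, filter, overlap and length alternatives were tried. Python 3.11.15, pandas 2.3.3, numpy 2.4.6, scipy 1.17.1 and matplotlib 3.10.9 were used.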

Additional observations from a re-analysis of the deposited data

How the results depend on the processing

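No paired analysis was possible because each diet has a single column of values, which is also why leaving out each library in turn was not run. The count at least 2-fold lower (60) went to 22 with a pseudocount of 1, 16 with median centring, 15 with quantile normalization, 14 at 4-fold and 12 among the 45 transcripts with non-coding exon over at least 50% of the interval. The count at least 2-fold higher (17) went to 8, 57, 57, 11 and 2 under the same settings. The calls of the whole table moved too, from 1297 lower and 194 higher of 3093. They were 689 and 101 with a pseudocount of 1, 464 and 493 with median centring, and 461 and 500 with quantile normalization. The median log2 ratio (-0.42) was -0.28 with a pseudocount of 1, and it turned to 0.40 with median centring and 0.39 with quantile normalization. Centring also turned the medians of lincRNA (0.48), antisense (0.49), processed transcript (0.40), bidirectional promoter (0.61) and TEC genes (0.12). With a pseudocount of 1 the antisense median was -0.18 and the TEC median -0.44. Among the 51 named transcripts, the ratio changed sign in 15 with median centring and 16 with quantile normalization. Of the 27 called ones, 4 lost the call with centring, 5 with quantile normalization and 8 with a pseudocount of 1. The other settings, among them sums per gene and intervals under 100 kb, both chosen after seeing the data, kept counts within 1.5 times and medians within 0.1. Depth limits low values: 1 fragment of a 400-base transcript is worth 0.142 FPKM in NCD and 0.108 in HFD.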

Other observations

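A few more transcripts, all chosen after their values were seen, lie by genes with known roles in secretion, stress or chromatin. Gm46210 starts head to head with Stxbp5, a regulator of vesicle fusion, and was at 1.27 FPKM in NCD and 0.427 FPKM in HFD. B230319C09Rik lies inside Tet3, a DNA demethylation enzyme gene, and was at 7.32 FPKM in NCD and 2.89 FPKM in HFD. 2810013P06Rik, head to head with the chromatin gene Ankrd11, was at 0.708 and 0.192 FPKM. On the other side, 2810414N06Rik, head to head with Edem3, which acts in the disposal of misfolded glycoproteins, was at 1.18 FPKM in NCD and 2.30 FPKM in HFD. 1700086O06Rik, head to head with Dele1, which relays mitochondrial stress, was at 0.820 and 1.59 FPKM. CAAA01141682.2, head to head with the zinc-finger gene Zfp983, was at 1.85 and 3.82 FPKM. AC114539.1, which overlaps the NF-kappaB subunit gene Nfkb2, was at 3.00 FPKM in NCD and 2.09 FPKM in HFD, a log2 ratio of -0.50 that lies above the table's median. None of these differences has a replicate check, and the coding genes were not measured here.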
